A study of Homo sapiens with 8 samples.

Results

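The genes described here are 9 established targets of the tumour suppressor p53: CDKN1A, MDM2, FAS, SESN1, PPM1D, ZMAT3, RRM2B, DDB2 and TP53INP1. They were taken by gene symbol from the platform annotation of an Affymetrix array, where each of the 9 had 1 probe set, and they are 9 of 17687 genes with a symbol there. The gene for p53 itself was not analysed here. The cells were CCRF-CEM, a human line long in use that was derived from T-cell acute lymphoblastic leukaemia (T-ALL). The 4 untreated cultures were held for 1 h in type I collagen at 1.7 mg/mL, and the other 4 cultures received 1 µM OICR-9429 for 1 h before the same 1 h in collagen. OICR-9429 is a small molecule that blocks the contact between WDR5 and MLL-family histone methyltransferases. The labels number the biological replicates 1 to 4 within a group, do not say whether they came from separate passages or days, and mention no solvent for the untreated cells, so p-values measure only the spread between these samples.

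p53 is a transcription factor that is held at a low level by MDM2, the ubiquitin ligase it induces, and that accumulates after DNA damage and other stress. Its targets stop the cell cycle, trigger apoptosis, repair DNA and adjust metabolism, and several of them (MDM2, PPM1D) switch p53 off again. The CCRF-CEM line is known to carry mutated p53, and its targets can also be transcribed without p53.

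p53 binds DNA at a response element made of paired half-sites of 10 bases each. The RefSeq start-site windows of 7 of the 9 genes (16 windows, assembly GRCh38.p14, from 250 bases before to 50 bases after each start) were searched for both half-sites side by side, 20 bases in all, with the C and the G at the centre of each half-site required and mismatches elsewhere counted. The motif is its own reverse complement, so 1 pass covers both strands. The best match had at most 3 mismatches in DDB2, MDM2, FAS and SESN1, as did 1.12% of all 35116 windows. At most 2 mismatches were found in 3 of the 7 genes and in 0.285% of all windows. A gene counts by the best of its windows (up to 4, for MDM2), whereas these shares are of single windows, so they are not like for like. These 4 stretches are shown because they resemble the p53 response element, and binding was not measured. The 20-base match is in capitals and the flanking bases are in lower case, 5′ to 3′ on the gene's own strand.
DDB2: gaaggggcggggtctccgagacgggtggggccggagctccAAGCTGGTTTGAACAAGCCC
MDM2: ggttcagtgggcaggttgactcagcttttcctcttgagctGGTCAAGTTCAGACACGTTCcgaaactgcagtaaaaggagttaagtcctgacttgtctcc
FAS: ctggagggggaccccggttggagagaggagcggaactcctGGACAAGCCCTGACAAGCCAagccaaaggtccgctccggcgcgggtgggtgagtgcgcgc
SESN1: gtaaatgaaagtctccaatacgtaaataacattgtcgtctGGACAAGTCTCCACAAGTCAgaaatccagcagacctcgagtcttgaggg
The DDB2 match had 1 mismatch and overlaps the start itself (stretch chr11:47214929-47214988, plus strand). The MDM2 match had 2 mismatches and lies before the internal start of that gene (chr12:68808883-68808982, plus strand). The FAS match also had 2 (chr10:88991269-88991368, plus strand), and the SESN1 match had 3 (chr6:109008989-109009077, minus strand). FAS and SESN1 had 3 windows each, and whether their matches lie at the outermost start of the gene was not examined. In CDKN1A, PPM1D and ZMAT3 no match this close was in the windows, which do not cover sequence farther from the starts. RRM2B and TP53INP1 were not searched. A match is a description of the sequence, and these genes were listed as p53 targets to begin with.

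All values are log2 expression values of 1 probe set, so a difference of 1 is a 2-fold difference. Each of the 8 arrays gave 21448 probe sets, and array medians ran from 6.38 to 6.46. All 12 markers of the T lineage that were looked for had a probe set, with CD3E at 11.82 and CD3D at 11.28 on average. Their median level was 9.15 and the lowest was 6.08, against a median of 6.445 over all probe sets. The 17 markers of other cells had a median of 6.46 and ran from 3.73 to 9.42. The arrays paired by replicate number. In what follows, a pair is the untreated and the treated array of one number, and the replicate block is the fit that takes the number into account.

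None of the 9 genes changed with OICR-9429 beyond the test threshold. In the limma fit 0 of 9 had an adjusted p under 0.05 (background 0% of all probe sets) and 0 of 9 an unadjusted p under 0.05 (background 0.49%). With the replicate block, whose standard errors were smaller (median 0.11 over all probe sets, against 0.22), 0 of 9 had an adjusted p under 0.05 (smallest 0.841, limma; background 0%) and 0 of 9 an unadjusted p under 0.05 (background 5.55%). In that block fit without pair 1, RRM2B (0.46) and PPM1D (0.34) met an unadjusted 0.05, as did 1482 of all 21448 probe sets, and 0 of 9 met an adjusted 0.05. Mean differences were above 0 for 8 of the 9 genes and for 51.7% of all probe sets, and the median over the genes was 0.13 against 0.0050 over all probe sets. With the block, the 95% intervals of the 9 differences lay between -0.28 and 0.62, so changes larger than 1.53-fold lay outside all of them. Without it they lay between -0.80 and 1.40. The values of treated and untreated arrays overlapped for all 9 genes, whereas 0.737% of all probe sets did not overlap. Markers of cell types gave 0 calls for treatment too, with 4 of 12 T-lineage markers above 0 (median -0.02) and 7 of 17 markers of other cells above 0 (median -0.06). The T-cell markers CD5 and CD3D stood at -0.15 ± 0.31 and -0.09 ± 0.20 (SE), the B-cell markers MS4A1 and CD79A at 0.34 ± 0.21 and -0.11 ± 0.24 (SE), and the platelet marker PF4 at -0.29 ± 0.20 (SE). With the replicate block 3 of the 17 other-cell markers had an unadjusted p under 0.05 (background 5.55%): MS4A1, higher, and PF4 and COL1A2, lower. Summed linear levels of the other-cell markers ran from 2382 to 3822 on untreated and from 2052 to 3515 on treated arrays.

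**Figure D1:**
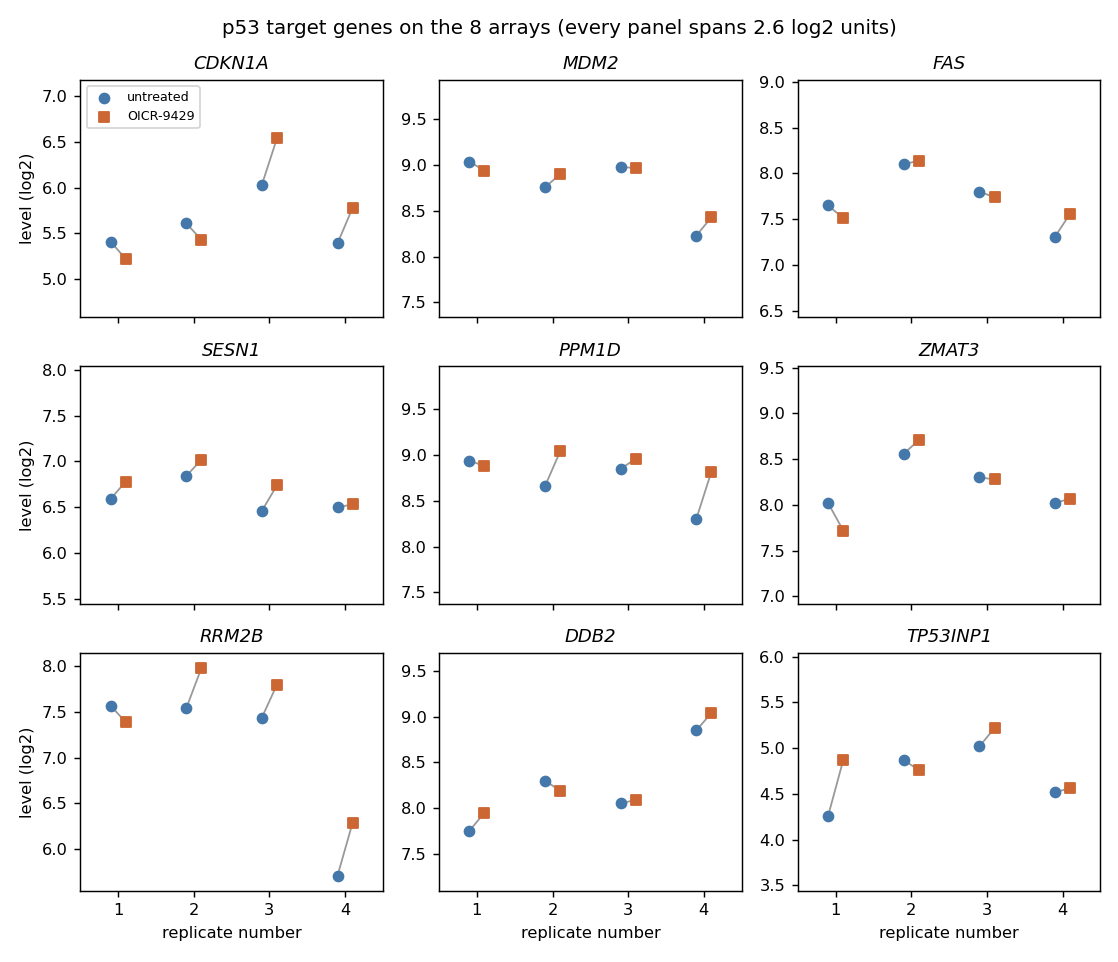
Level of each p53 target on the 8 arrays (log2, vertical axis) by replicate number (horizontal axis), with untreated cells as blue circles, OICR-9429 as orange squares and a line joining each pair. The panels share 1 scale length, and both RRM2B values of number 4 (5.71 and 6.29) stand well below its other 6, which run from 7.39 to 7.98.

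CDKN1A encodes p21, the inhibitor of cyclin-dependent kinases through which p53 halts the cell cycle. It measured 5.41, 5.61, 6.03 and 5.39 on the untreated arrays of numbers 1 to 4 and 5.22, 5.43, 6.54 and 5.78 on the treated ones. The highest value of each group was that of number 3, and the groups overlapped. The means were 5.61 ± 0.30 and 5.74 ± 0.58 (SD, n = 4 each), a difference of 0.13 ± 0.29 (SE; limma, adjusted p = 1). The pairs split evenly, with -0.19 and -0.18 in numbers 1 and 2 and 0.51 and 0.39 in numbers 3 and 4. Without the treated array of number 3, which leaves the untreated one unpaired, the mean difference was -0.13. Without the whole pair, in the replicate block, it was 0.0067.

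MDM2 and PPM1D act back on p53, MDM2 by marking it for degradation and PPM1D (the phosphatase WIP1) by removing its activating phosphates. MDM2 measured 9.04, 8.76, 8.98 and 8.23 on the untreated arrays and 8.94, 8.90, 8.97 and 8.43 on the treated ones. Both arrays of number 4 were the lowest of their group. The treatment difference was 0.06 ± 0.22 (SE; limma, adjusted p = 1), with pairs of -0.10, 0.14, -0.01 and 0.20. Without the untreated array of number 4 it was -0.12, in a fit that kept the low treated array of that number. Without the whole pair, in the replicate block, it was 0.01. PPM1D measured 8.94, 8.66, 8.85 and 8.30 untreated and 8.88, 9.04, 8.96 and 8.82 treated. The treated values kept closer together, at 8.93 ± 0.10 against 8.69 ± 0.28 (SD, n = 4 each), and whether the spreads differ was not tested. Its difference was 0.24 ± 0.18 (SE; limma, adjusted p = 1), with pairs of -0.06, 0.38, 0.11 and 0.52. With the replicate block the 95% interval ran from -0.04 to 0.52 (limma, adjusted p = 0.841).

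FAS, TP53INP1 and ZMAT3 are linked to cell death and growth control: FAS is the death receptor for FAS ligand, TP53INP1 a stress-induced protein that promotes p53-driven apoptosis, and ZMAT3 an RNA-binding zinc finger protein that regulates splicing. FAS measured 7.65, 8.10, 7.80 and 7.31 untreated and 7.51, 8.14, 7.74 and 7.56 treated. Number 2 was the highest in both groups, and the pair differences of -0.14, 0.04, -0.06 and 0.25 went both ways around a mean of 0.02 ± 0.22 (SE; limma, adjusted p = 1). ZMAT3 measured 8.02, 8.56, 8.30 and 8.02 untreated and 7.72, 8.71, 8.28 and 8.07 treated. It was the 1 gene of the 9 with a mean difference below 0, at -0.03 ± 0.23 (SE; limma, adjusted p = 1), with pairs of -0.30, 0.15, -0.02 and 0.05. Removing single arrays turned the sign for both genes, to -0.11 for FAS without the untreated array of number 4 or the treated array of number 2, and to 0.13 for ZMAT3 without the treated array of number 1. TP53INP1 measured 4.26, 4.87, 5.02 and 4.52 untreated and 4.87, 4.76, 5.22 and 4.56 treated. Its mean of 4.76 was the lowest of the 9 genes and lay near the lower quartile of all probe sets (4.64). Its largest pair difference was 0.61 in number 1, where the untreated array was the lowest of the 8, and the other pairs were -0.11, 0.20 and 0.04. The mean difference was 0.19 ± 0.22 (SE; limma, adjusted p = 1).

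RRM2B and DDB2 serve DNA repair: RRM2B is the p53-inducible small subunit of ribonucleotide reductase, which supplies deoxynucleotides, and DDB2 recognises ultraviolet damage within the DDB1 complex. RRM2B measured 7.57, 7.54, 7.44 and 5.71 untreated and 7.39, 7.98, 7.80 and 6.29 treated. Number 4 lay far below the other numbers in both groups. The treatment difference was the largest of the 9 genes, at 0.30 ± 0.49 (SE; limma, adjusted p = 1), and with the replicate block its SE was 0.14 and its 95% interval ran from -0.02 to 0.62 (limma, adjusted p = 0.841). The pairs were -0.18, 0.44, 0.36 and 0.58. Without the untreated array of number 4 the difference was -0.15, in a fit that kept the low treated array of that number. Without the whole pair, in the replicate block, it was 0.21. DDB2 measured 7.75, 8.30, 8.05 and 8.85 untreated and 7.95, 8.19, 8.09 and 9.04 treated. Here number 4 was the highest in both groups, opposite to RRM2B. Its treatment difference was 0.08 ± 0.30 (SE; limma, adjusted p = 1), with pairs of 0.20, -0.11, 0.04 and 0.19. It was -0.16 without the treated array of number 4 and -0.08 without the untreated array of number 1. With the replicate block it was 0.04 without the whole pair of number 4, and 0.04 without that of number 1.

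SESN1 encodes sestrin 1, which restrains the growth kinase complex mTORC1 under stress. It measured 6.59, 6.84, 6.46 and 6.50 untreated and 6.78, 7.02, 6.74 and 6.53 treated. It was the 1 gene of the 9 that was higher with OICR-9429 in 4 of 4 pairs, at 0.19, 0.18, 0.28 and 0.03, and 5.94% of all probe sets were, while 0 of the 9 were lower in 4 of 4 pairs (background 6.62%). The mean difference of 0.17 ± 0.17 (SE; limma, adjusted p = 1) did not pass, nor did it with the replicate block (limma, adjusted p = 0.841).

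**Figure D2:**
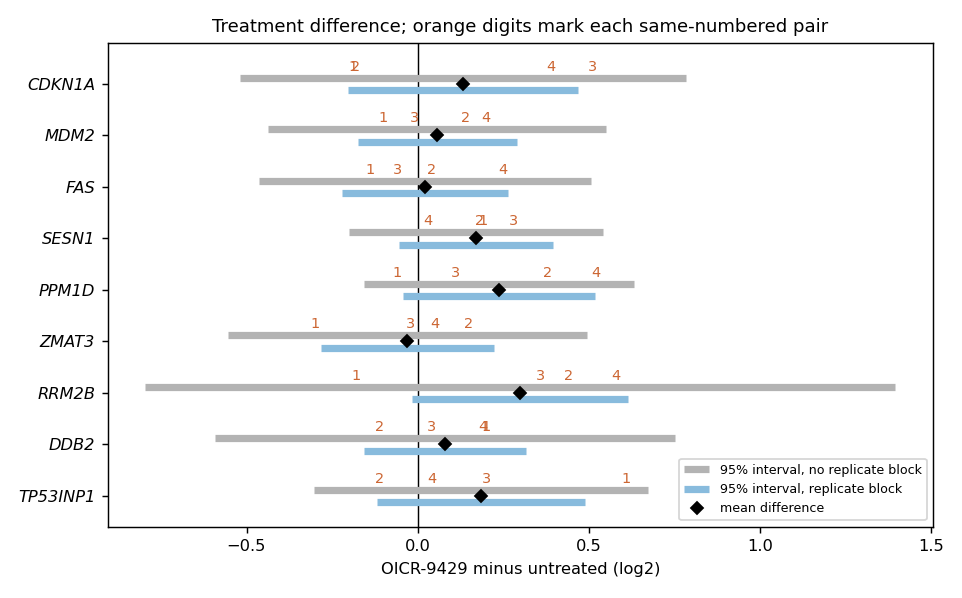
OICR-9429 minus untreated for the 9 genes (log2, horizontal axis), with the mean as a diamond, the 95% interval of limma without (grey) and with (blue) the replicate block, and each pair as an orange digit. Every interval includes 0, and the pairs of all genes except SESN1 fall on both sides of it.

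The pairs differed in how many genes lay above 0. In number 1, 3 of the 9 were higher with OICR-9429 (45.4% of all probe sets), in number 2 it was 6 (50.9%), in number 3 also 6 (49.3%) and in number 4 all 9 (51.3%). In number 4 the differences ran from 0.03 for SESN1 to 0.58 for RRM2B, with a median of 0.20, and in number 1 from -0.30 for ZMAT3 to 0.61 for TP53INP1, with a median of -0.10. Each pair is 1 array against 1, so these counts carry no test.

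Differences between the replicate numbers passed the test in 6 of the 9 genes. The limma F test over the 4 numbers called them against a background of 50.3% of all probe sets: RRM2B (adjusted p = 0.000754), DDB2 (0.00216), MDM2 (0.0148), ZMAT3 (0.0153), CDKN1A (0.0190) and FAS (0.0218). TP53INP1 (adjusted p = 0.0812), SESN1 (0.118) and PPM1D (0.278) did not pass. The share depends on level: above the median level 8848 of 10721 probe sets passed, as did 6 of the 7 genes there. SESN1 was among those 6 (limma, adjusted p = 0.0389). TP53INP1 passed without number 1 (0.0472) and without number 2 (0.0495; limma). Since 2 arrays of a number pair, these p-values rest on the scatter within pairs and not on independent cultures of one number. Number 4 carried most of the calls, over all probe sets too. Without it 2979 of 21448 probe sets passed, against 10791 with it, and 2 of the 9 genes, CDKN1A and ZMAT3. The adjusted p there was 0.527 for RRM2B, 0.206 for DDB2, 0.648 for MDM2 and 0.0747 for FAS (limma). Without number 3 CDKN1A had adjusted p = 0.471, and without number 2 ZMAT3 had 0.125 and FAS 0.238 (limma). With quantile normalization MDM2 (adjusted p = 0.115) and FAS (0.0557) did not pass.

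The direction at number 4 was not shared. Against the mean of the other 3 numbers, RRM2B fell by 1.62 ± 0.16 (SE; limma, adjusted p = 0.000126), which is 3.07-fold lower, and MDM2 fell by 0.60 ± 0.12 (SE; adjusted p = 0.00323), or by 0.34 with quantile normalization (adjusted p = 0.0336). FAS fell by 0.39 ± 0.12 (SE; adjusted p = 0.0276), a call that was lost with quantile normalization (adjusted p = 0.271) and without number 2 (adjusted p = 0.179). DDB2 rose by 0.89 ± 0.12 (SE; limma, adjusted p = 0.000504), 1.85-fold. Number 4 was lower for 25.5% of all probe sets and higher for 26.3%. Of the 3 genes with the closest p53 matches shown above, DDB2 lay higher and MDM2 and FAS lower in that number. Whether the matches bear on these directions was not tested. Number 4 also stood apart in markers of cell types, such as the T-cell coreceptor CD4, which was higher by 1.73 ± 0.13 (SE), and the lysosomal CD68, abundant in macrophages, which was higher by 1.68 ± 0.13 (SE), and the cytotoxic granule gene NKG7, which was higher by 0.87 ± 0.11 (SE), while the cortical thymocyte marker CD1A fell by 1.66 ± 0.13 (SE). Of 12 T-lineage markers 6 were higher and 1 lower there, with summed linear levels of 16375 to 16457 against 10281 to 11544 on the other arrays. Of 17 markers of B, myeloid, NK, red cell, platelet, fibroblast and epithelial cells 9 were higher and 2 lower, with sums of 3515 to 3822 against 2052 to 2529. Their part in the results on p53 targets was not tested.

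The other numbers differed in fewer of the genes. In number 2, ZMAT3 was higher by 0.57 ± 0.13 (SE; limma, adjusted p = 0.0131), FAS by 0.53 ± 0.12 (SE; adjusted p = 0.0154) and RRM2B by 0.73 ± 0.16 (SE; adjusted p = 0.0121), where 15.4% of all probe sets were higher, and 0 of the 9 were lower (background 11.6%). For RRM2B that contrast includes the low number 4, and without number 4 it was 0.21 (limma, adjusted p = 0.426). In number 1, DDB2 fell by 0.57 ± 0.12 (SE; limma, adjusted p = 0.0171) and ZMAT3 fell by 0.45 ± 0.13 (SE; adjusted p = 0.0447), where 6.14% of all probe sets were lower, and 0 of the 9 were higher (background 10.6%). Without number 4 the DDB2 difference was -0.31 (limma, adjusted p = 0.169). The ZMAT3 difference was -0.30 without number 2 (adjusted p = 0.137), -0.47 without number 3 (0.0680) and -0.41 with arrays centred on their medians (0.0610; limma). In number 3 none of the 9 passed (limma, background 1.18% higher and 0.2% lower). CDKN1A came nearest, at 0.81 ± 0.17 (SE; adjusted p = 0.0608), with 6.29 as the mean of its 2 arrays against 5.32, 5.52 and 5.59 in numbers 1, 2 and 4.

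**Figure D3:**
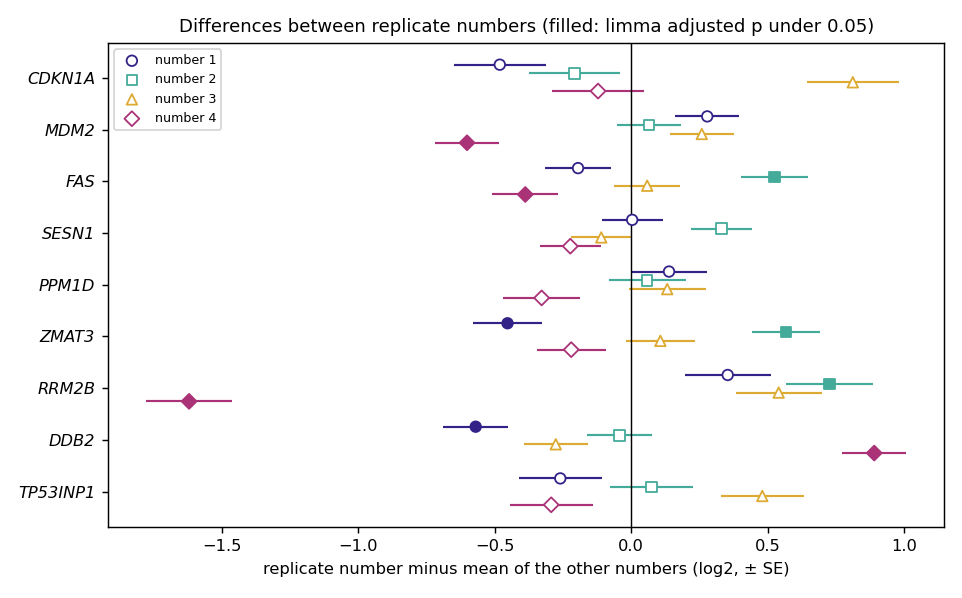
Difference of each replicate number from the mean of the other numbers (log2 ± SE, horizontal axis) for the 9 genes, with filled symbols for a limma adjusted p under 0.05. RRM2B, MDM2 and FAS have filled symbols below 0 for number 4, at -1.62, -0.60 and -0.39, and DDB2 has one above 0, at 0.89.

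Other targets of p53 also gave 0 calls for treatment. Of 31 measured genes from 39 listed symbols, 21 lay above 0 and 10 below, with a median of 0.07, and 0 passed (limma). An unadjusted p under 0.05 was met by 0 of 31, and by 2 of 31 with the replicate block (background 0.49% and 5.55%). The 2 of 31 lie near the background and are named only for completeness. They were PIDD1, which builds the caspase-2 activating PIDDosome, and TIGAR, a bisphosphatase that lowers glycolytic flux. PIDD1 measured 6.92 ± 0.21 untreated and 6.57 ± 0.19 treated (SD, n = 4 each), lower in 4 of 4 pairs (background 6.62%), and TIGAR 6.33 ± 0.57 and 6.67 ± 0.56 (SD, n = 4 each), higher in 4 of 4 pairs (background 5.94%). Without the block, the other genes with the lowest unadjusted p in their lists were TNFRSF10A (a TRAIL receptor) with a difference of -0.17, GDF15 (a secreted stress cytokine) at -0.26, and the kinases PLK3 and PLK2 at 0.19 and 0.10, and 0 of them met 0.05. Between replicate numbers 20 of the 31 passed the limma test (64.5%, background 50.3%), and the background was not matched for level. At number 4, 10 were higher (background 26.3%) and 9 lower (background 25.5%). APAF1, the scaffold of the apoptosome, fell by 1.68 ± 0.13 (SE), ASCC3, a DNA helicase, fell by 2.21 ± 0.14 (SE), FBXW7, a ubiquitin ligase subunit that marks cyclin E and MYC, fell by 1.26 ± 0.13 (SE), and RPS27L fell by 1.51 ± 0.11 (SE), whereas SESN2, the sister of SESN1, was higher by 1.08 ± 0.13 (SE).

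Regulators of p53 did not pass the treatment test. Of 22 measured, 17 lay above 0 (background 51.7%), the median was 0.07, and 0 passed (limma). With the replicate block 1 of the 22 had an unadjusted p under 0.05 (background 5.55%). It was SIRT1, with a difference of 0.30 (limma, unadjusted p = 0.0412, adjusted p = 0.841). COP1, a ubiquitin ligase for p53, stood at 0.23 ± 0.18 (SE), and CHEK2, a kinase that phosphorylates p53 after double-strand breaks, at 0.21 ± 0.17 (SE). Between numbers 17 of 22 passed (77.3%, background 50.3%). Their median level was 8.45, and above the median level of the arrays 8848 of 10721 probe sets passed. At number 4, 14 were lower (background 25.5%) and 3 higher (background 26.3%), with a median of -0.54. These backgrounds are over all probe sets and were not matched for level, so the shares are not like for like. The largest was PRKDC, the catalytic subunit of DNA-dependent protein kinase, which fell by 2.55 ± 0.12 (SE). CREBBP, an acetyltransferase coactivator of p53, fell by 1.55 ± 0.12 (SE).

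Genes linked to p21 showed 0 calls for treatment as well. The first list held 14 cell cycle genes around p21: cyclins, their kinases, PCNA, RB1, E2F1 and the p21 relatives CDKN1B and CDKN1C. Of these 14, 10 lay above 0 with a median of 0.04. Of 14 genes that p53 lowers through p21 or that encode the DREAM repressor complex (its subunits E2F4, LIN9 and LIN54), 10 lay above 0 with a median of 0.05 (limma, 0 passed in each). CDKN1C, a relative of p21, stood at -0.18 ± 0.31 (SE), CCND2 (cyclin D2) at -0.12 ± 0.16 (SE), LIN9 at 0.14 ± 0.34 (SE) and CDC25C at 0.11 ± 0.18 (SE). In number 4, CCNE2 (cyclin E2) fell by 2.40 ± 0.11 (SE) and CDK6 fell by 1.89 ± 0.11 (SE), CHEK1 fell by 1.09 ± 0.12 (SE), and CDC20, an activator of the anaphase-promoting complex, was higher by 1.02 ± 0.11 (SE). CDKN1A itself differed there by -0.12 ± 0.17 (SE; limma, adjusted p = 0.570). The mean of its 2 arrays was 5.59 in number 4, against 5.32, 5.52 and 6.29 in numbers 1 to 3. Whether p21 bears on the differences of the other genes was not tested. At number 4, 8 of the 14 cell cycle genes around p21 were lower and 1 higher, and 5 of the 14 genes lowered through p21 or encoding DREAM, LIN9 and LIN54 among them, were lower and 5 higher (background 25.5% lower and 26.3% higher). The lists had median levels of 9.90 and 9.85, above the 6.445 of all probe sets. The background was not matched for level, so the shares are not like for like.

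Partners and relatives of the 9 genes were described in the same way. Of 12, 8 lay above 0 with a median of 0.05, and 0 passed for treatment (limma). With the replicate block 1 of the 12 had an unadjusted p under 0.05 (limma, background 5.55%). TP53INP2, the relative of TP53INP1, measured 6.64 ± 0.29 untreated and 6.29 ± 0.25 treated (SD, n = 4 each), lower in 4 of 4 pairs (background 6.62%), the opposite sign to TP53INP1, and PPM1B, a phosphatase of the PPM1D family, stood at 0.20 ± 0.24 (SE). Whether the members of these families differ was not tested. At number 4, PPM1A fell by 1.08 ± 0.14 (SE) and CUL4A, the cullin that holds the DDB1 and DDB2 ligase, fell by 0.79 ± 0.11 (SE), while DDB2 itself rose. Between numbers 10 of 12 passed (83.3%, background 50.3%). The median level of this list lay above that of all probe sets. Above the median level of the arrays 8848 of 10721 probe sets passed. The background of 50.3% was not matched for level, so the shares are not like for like.

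**Figure D4:**
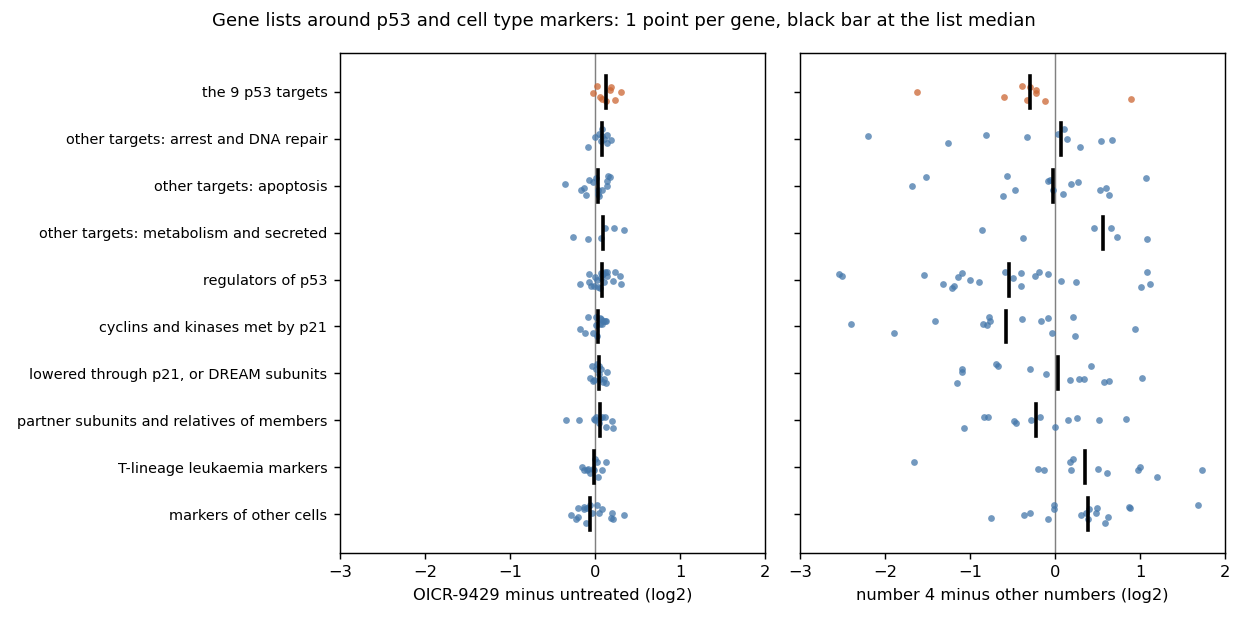
Each point is 1 gene of a list around p53 or of the 2 marker lists at the bottom (the 9 targets in orange), placed by OICR-9429 minus untreated (left, log2) and by number 4 minus the other numbers (right, log2), with a black bar at the list median. Points on the left stay close to 0, with a median of 0.13 for the 9 genes, and on the right they spread from -2.55 for PRKDC to 1.73 for the T-lineage marker CD4.

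The profile of each gene over the 8 arrays, centred on its mean, was set against that of every other gene with a symbol, by the root mean square of the differences. For MDM2 the closest was CREB1 (0.036), for FAS BUB1B (0.045), for ZMAT3 CCDC88C (0.064), for SESN1 KRTAP7-1 (0.067), for PPM1D ITGB1BP2 (0.078), for RRM2B RECQL (0.081), for DDB2 PCLO (0.083), for CDKN1A RPS4Y2 (0.10) and for TP53INP1 C15orf62 (0.12), all on the log2 scale. The mean levels of KRTAP7-1 (4.43) and RPS4Y2 (4.14) lay below the lower quartile of all probe sets (4.64). Those of ITGB1BP2 and PCLO lay just above it. The other nearest genes ran from 5.83 for C15orf62 to 10.05 for BUB1B. Whether the low ones stand above background was not tested. Among the 9 genes themselves the closest were FAS and ZMAT3, at 0.14, and 53 other genes lay nearer to ZMAT3 than FAS did, and 178 nearer to FAS than ZMAT3 did. For DDB2 the nearest of the 9 was SESN1, at 0.50, and 10613 genes lay nearer than that. The root mean square of DDB2 around its own mean was 0.42, so a flat profile would lie nearer too.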

How the data were processed

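The authors deposited log2 expression values per probe set for 8 arrays. RMA, which corrects background, normalizes arrays and summarises probes, and Transcriptome Analysis Console were applied, per the submitters' processing notes (versions and build not given in the sources used here). Labelling used the GeneChip WT PLUS kit, per the labels. Scanner files were not used here, so signal over background and scan batches were not examined, and the number of arrays limits the precision.

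Names came from the platform annotation, with symbols updated by Entrez ID through a RefSeq table: 17709 had 1 symbol and 3739 none. A gene with several probe sets was represented by the one with the highest mean. The treatment test was limma (lmFit and eBayes, version 3.58.1 in R 4.3.3) over all 21448 probe sets, without a covariate, two-sided, with Benjamini-Hochberg adjustment. Numbers were compared in a model with number and treatment (3 residual degrees of freedom before pooling). Deviations from the group means correlated between same-numbered arrays, across probe sets, at 0.696, 0.748, 0.566 and 0.865, so the numbers from the titles pair the samples. The fits were also run on simulated data, and the outcome is not given here.

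The genes and lists were chosen with earlier results of these data known, and the lists are described by counts with no list test. Named from each list were the 2 genes with the smallest p for treatment and the 2 with the smallest p between numbers, and for each target the gene of nearest profile. Alternatives were the replicate block, centring, quantile normalization, a filter at the median level, trend and robust eBayes, no treatment term, and leaving out arrays or pairs. Each target had 1 probe set, so the alternative of using every probe set gave no other value.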

Additional observations from a re-analysis of the deposited data

Results flagged for a closer look

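In 88 groups of 4 arrays (the 9 p53 targets and the other named genes, each untreated and treated), 1 array stood far from the other 3 in 12, each time an array of number 4. Chance gives such an array in about 1 in 20 groups, but many of the other genes were named because they differed between numbers, so their flags cannot be set against that rate. The targets alone gave 2 of 18: RRM2B on the untreated array, at 5.71 against 7.44 to 7.57, and MDM2 on the treated array, at 8.43 against 8.90 to 8.97.

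Among the other genes, the untreated array was low for ASCC3 (6.35, the others from 8.40), PRKDC (7.96, the others from 10.47), CCNE2 (6.90, the others from 9.13), CHEK1 (9.03, the others from 10.15) and PPM1A (8.59, the others from 9.67). The treated array was low for PRKDC (8.29, the others from 10.52), CDK6 (8.53, the others from 10.27), CCNE2 (7.07, the others from 9.18) and LIN9 (7.01, the others up to 8.10), and high for CD5 (10.67, the others up to 9.66).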

How the results depend on the processing

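The treatment comparison gave 0 of 9 targets and 0 probe sets past an adjusted p of 0.05 (limma) in every alternative run, the replicate block included (0 of 9, where an unadjusted p under 0.05 was met by 1191 probe sets, against 105 with no block, 5 with the filter at the median level, 165 with trend and robust eBayes and 124 with quantile normalization). CDKN1A and TP53INP1 lay below that filter. Over alternatives, the differences ran from -0.13 to 0.31 for CDKN1A, -0.16 to 0.28 for DDB2, -0.11 to 0.15 for FAS, -0.12 to 0.18 for MDM2, -0.15 to 0.66 for RRM2B and -0.20 to 0.13 for ZMAT3. Each of these changed sign when single arrays were left out of the fit without the block. Such a fit keeps the other array of that number unpaired. When whole pairs were left out of the block fit, only FAS and ZMAT3 changed sign. The differences stayed above 0 for PPM1D (0.11 to 0.34), SESN1 (0.09 to 0.25) and TP53INP1 (0.04 to 0.30). With the replicate block and without pair 4 FAS stood at -0.053, and without pair 1 ZMAT3 stood at 0.06. Without the untreated array of number 4, 5 of 9 targets lay above 0, against 8 with all arrays. With the replicate block and 1 whole pair left out, 7 to 9 of 9 targets did.

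Between numbers, 10791 probe sets and 6 targets passed, and 2979 to 10394 probe sets and 2 to 7 targets did when 1 number was left out, with the lowest counts without number 4. The filter at the median level gave 8848 of 10721 probe sets and 6 of 7 targets, SESN1 included. Other alternatives gave 10402 to 11720 of 21448 probe sets and 4 (quantile normalization) or 6 of 9 targets.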
